A study of Mus musculus with 10 samples.

Results

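The pairs described here join a captured promoter fragment (the bait) to another HindIII fragment of the same chromosome at least 1 Mb away. They were chosen by the deposited distance column alone, as pairs with an absolute distance of 1 Mb or more on the autosomes and X. There were 4826 such long-range pairs among 99948 listed pairs (4.83%). The list of haematopoietic stem and progenitor cells (HSPCs) held 4523 of 88421 (5.12%), the neutrophil list held 606 of 25578 (2.37%), and 303 stood in both. Promoter-capture Hi-C was done on 10 libraries, 2 biological replicates in each of 5 groups, all from C57BL/6 mice whose ages the labels do not give. The HSPC groups were WT, Npm1flox-cA/+;Mx1-Cre+ (Npm1c), Flt3ITD/+ (Flt3-ITD) and Npm1flox-cA/+;Flt3ITD/+;Mx1-Cre+ (DM, which carries both mutations). The fifth group was WT neutrophils. Npm1c is a leukaemia mutation of nucleophosmin, switched on here by a Cre recombinase under the interferon-inducible Mx1 promoter, and Flt3ITD is a duplication inside the Flt3 receptor gene that leaves the receptor switched on. HSPCs came from bone marrow depleted of lineage-marked cells, and neutrophils were isolated from marrow with a kit. The scores hold no expression, so these labels could not be checked against marker levels.

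Most promoter contacts stay within a topological domain, a stretch folded by cohesin up to boundaries bound by CTCF, and contact frequency falls steeply with distance. Contacts far beyond a domain are known between clusters of similar chromatin: replication-dependent histone genes gather in the histone locus body, and genes silenced by Polycomb gather with each other. A few promoters are also known to reach a distant enhancer, among them Myc, whose blood enhancer cluster lies far downstream of the gene.

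Each pair has 1 interaction score per library, never negative, and "passed" below means a score of 5 or more in both libraries of a group. Every HSPC pair was listed because it passed in at least 1 HSPC group, which makes differences between a group that passed and one that did not look larger. Each library was made from a bulk of crosslinked cells, so a contact present in more cells and a stronger contact in the same cells cannot be told apart.

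Among long-range pairs found in every group, the highest scores joined fragments that hold histone genes of chromosome 13, so promoters at both ends of these contacts are shown first. Sequences are the 300 bases from 250 before to 50 after each start, from RefSeq on GRCm38.p6, written 5′ to 3′ along the gene. Capitals mark CCAAT or its reverse complement ATTGG (both strands were searched), the box bound by the factor NF-Y. H2ac10 (chr13:23533625-23533924, + strand), H3c8 (chr13:23535168-23535467, +) and H4c8 (chr13:23530794-23531093, +) lie on 1 bait fragment, and they code for core histones H2A, H3 and H4.
H2ac10: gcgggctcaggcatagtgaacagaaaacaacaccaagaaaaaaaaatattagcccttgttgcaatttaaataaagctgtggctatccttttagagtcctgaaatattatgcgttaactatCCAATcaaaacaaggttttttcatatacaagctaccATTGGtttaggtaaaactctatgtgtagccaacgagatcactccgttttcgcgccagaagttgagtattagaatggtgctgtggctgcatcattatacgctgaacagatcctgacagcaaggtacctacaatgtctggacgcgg
H3c8: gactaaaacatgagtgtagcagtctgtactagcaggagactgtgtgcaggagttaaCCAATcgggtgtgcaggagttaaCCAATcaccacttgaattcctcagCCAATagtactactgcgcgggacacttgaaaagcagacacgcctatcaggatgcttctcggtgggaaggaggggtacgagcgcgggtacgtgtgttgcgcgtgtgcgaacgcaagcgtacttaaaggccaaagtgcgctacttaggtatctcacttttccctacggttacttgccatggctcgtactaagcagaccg
H4c8: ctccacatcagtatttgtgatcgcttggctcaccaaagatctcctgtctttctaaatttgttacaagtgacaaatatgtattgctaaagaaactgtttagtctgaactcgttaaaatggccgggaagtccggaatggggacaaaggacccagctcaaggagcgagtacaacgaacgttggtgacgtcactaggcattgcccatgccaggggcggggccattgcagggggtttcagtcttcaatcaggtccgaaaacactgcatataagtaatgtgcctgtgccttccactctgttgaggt
Their partner fragment 1.49 Mb away holds H2ac11 (chr13:22042900-22043199, - strand) and H4c9 (chr13:22041313-22041612, -).
H2ac11: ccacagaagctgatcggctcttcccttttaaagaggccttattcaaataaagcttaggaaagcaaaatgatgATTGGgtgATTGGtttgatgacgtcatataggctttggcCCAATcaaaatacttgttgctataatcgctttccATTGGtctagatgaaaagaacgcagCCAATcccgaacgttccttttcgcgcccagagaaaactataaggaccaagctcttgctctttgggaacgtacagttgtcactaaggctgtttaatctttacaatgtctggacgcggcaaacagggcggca
H4c9: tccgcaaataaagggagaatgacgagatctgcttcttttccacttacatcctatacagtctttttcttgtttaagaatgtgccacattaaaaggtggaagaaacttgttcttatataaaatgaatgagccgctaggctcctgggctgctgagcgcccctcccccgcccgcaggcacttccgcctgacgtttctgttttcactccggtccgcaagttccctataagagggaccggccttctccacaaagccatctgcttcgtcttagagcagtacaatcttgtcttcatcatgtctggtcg
H2ac13 (chr13:21716162-21716461, + strand) shares a divergent promoter with H2bc13 and lies at an end of 4 of the 5 longest pairs found in every group.
H2ac13: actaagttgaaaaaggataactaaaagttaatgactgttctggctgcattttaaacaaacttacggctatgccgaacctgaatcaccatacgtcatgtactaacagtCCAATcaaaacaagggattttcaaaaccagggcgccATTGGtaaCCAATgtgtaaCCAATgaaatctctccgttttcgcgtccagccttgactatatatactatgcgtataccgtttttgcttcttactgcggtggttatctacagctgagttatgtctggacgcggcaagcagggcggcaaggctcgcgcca
The H2A genes shown hold 2, 5 and 4 such boxes and H3c8 holds 3, while the H4 promoters shown hold none in this window. The box was present in 34 of 40 promoters (85.0%) of chromosome 13 histone genes on a bait with a long-range pair, against 12260 of 32619 (37.6%) of all promoters of this length. TATAAA, searched on both strands, was present in 25 of those 40 (62.5%) and in 13.7% of all. Among promoters on other baits with a long-range pair, CCAAT was in 39.6% and TATAAA in 7.62%.

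The single non-histone pair among the 10 highest found in every group lay on chromosome 8. It joined a fragment near Smarca5 (the ISWI remodeller SNF2H) to a fragment near Otud4 (a deubiquitinase). Neither fragment holds an assigned gene, and the promoters printed next do not lie on them. The promoters of both genes are shown for the contrast with the histone genes: Smarca5 (chr8:80739410-80739709, - strand) and Otud4 (chr8:79639426-79639725, + strand) are rich in G and C (67.7% and 74.7%) and hold neither motif in this window.
Smarca5: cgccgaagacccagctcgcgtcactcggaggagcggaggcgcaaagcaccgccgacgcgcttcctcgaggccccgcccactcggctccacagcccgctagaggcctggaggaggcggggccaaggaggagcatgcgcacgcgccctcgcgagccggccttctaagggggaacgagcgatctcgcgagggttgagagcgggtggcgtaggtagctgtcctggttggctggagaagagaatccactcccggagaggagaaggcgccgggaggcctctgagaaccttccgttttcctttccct
Otud4: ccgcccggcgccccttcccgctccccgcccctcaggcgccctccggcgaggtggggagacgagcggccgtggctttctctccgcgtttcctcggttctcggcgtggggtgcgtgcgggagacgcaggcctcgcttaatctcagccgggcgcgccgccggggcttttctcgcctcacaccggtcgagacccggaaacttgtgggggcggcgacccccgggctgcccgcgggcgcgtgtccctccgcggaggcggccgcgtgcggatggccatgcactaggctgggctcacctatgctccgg

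The long-range pairs were few per promoter and gathered in few places. They fell on 1516 of 12170 HSPC baits (12.5%), and 880 of those baits (58.0%) had a single one. The median distance was 1.72 Mb and the longest pair spanned 168 Mb. Of the HSPC pairs, 35.0% spanned 1 to 1.5 Mb, 31.7% spanned 1.5 to 2 Mb, 19.4% spanned 2 to 5 Mb, and 430 pairs spanned 10 Mb or more. The threshold cut through no gap: the 592 pairs of 0.9 to 1 Mb had median scores of 2.54 to 5.37 over the 8 libraries, and the 485 pairs of 1 to 1.1 Mb had 2.47 to 5.77. Chromosome 13 held 22.2% of the HSPC pairs and 66.2% of the neutrophil pairs, and chromosome 6 held 11.3% of the HSPC pairs.

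Pairs were grouped into patches where the 500 kb windows at both ends touched. The HSPC pairs made 829 patches, 410 of them of a single pair, and the 159 patches of 5 or more pairs held 76.1% of all pairs. The windows joined by most pairs were the natural killer gene complex with Styk1 on chromosome 6 (297 pairs), followed by 4 window pairs across the histone genes of chromosome 13 (294, 168, 164 and 106 pairs). The other end was itself a bait in 36.1% of long-range pairs, in 27.0% of pairs of 0.5 to 1 Mb and in 23.0% of all shorter ones. Listing from both ends was seen for 17.2% of long-range pairs and 6.96% of shorter ones. Scores of the 388 fragment pairs listed both ways ran together, with Spearman correlations of 0.87 to 0.95 in the 8 libraries; both readings come from the same ligated fragments, so this is no independent replicate.

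Replicates agreed less than over all shorter pairs, but not less in every group than over pairs of 0.5 to 1 Mb. Of long-range pairs at 5 or more in either library of a group and listed through another group, 30.7% (WT), 35.0% (Npm1c), 49.0% (Flt3-ITD) and 40.0% (DM) reached 5 in both. The same percentages for shorter pairs were 45.1%, 50.5%, 58.5% and 55.4%, and for pairs of 0.5 to 1 Mb alone they were 28.9%, 39.6%, 46.6% and 45.7%. Scores of exactly 0 were common: 18.2% of long-range pairs were at 0 in both WT libraries, against 0.310% of shorter pairs. For Npm1c, Flt3-ITD and DM the long-range percentages were 10.3%, 6.72% and 13.5%.

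Fewer long-range pairs recurred across groups. Of the HSPC pairs, 3370 (74.5%) passed in 1 group, against 55.4% of shorter pairs, and 159 (3.52%) passed in all 4 HSPC groups, against 10.6%. Flt3-ITD alone accounted for 1386 pairs (30.6%), DM alone for 861 (19.0%), Npm1c alone for 746 (16.5%) and WT alone for 377 (8.34%). Among shorter pairs the same percentages were 14.6%, 18.5%, 11.9% and 10.4%, so the DM and WT percentages lie near those of shorter pairs. In all 4 HSPC groups and in neutrophils, 70 long-range pairs (1.55%) passed, against 5.09% of shorter pairs.

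Of the 10 pairs with the highest mean score among those 70, 9 joined histone gene fragments or their neighbours. The bait of H2ac10, H3c8 and H4c8 with the fragment of H2ac11 and H4c9 scored 39.9 and 37.5 in WT, 16.4 and 33.3 in Npm1c, 30.8 and 51.7 in Flt3-ITD, 49.0 and 62.9 in DM, and 33.3 and 39.0 in neutrophils. The groups overlap, and the lowest library is an Npm1c one. H4c6, 1.51 Mb from the same partner, scored 40.2 and 7.52 in WT and 35.0 and 75.0 in Npm1c, so the replicates lay far apart within both groups. The tenth pair, 1.05 Mb on chromosome 8 between chr8:80719002-80723798 near Smarca5 and a fragment near Otud4, scored 29.8 and 25.7 in WT, 32.3 and 42.5 in Npm1c, 42.0 and 39.0 in Flt3-ITD, 23.6 and 28.2 in DM, and 8.71 and 6.29 in neutrophils. Both neutrophil scores lay below every HSPC score of that pair.

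The longest contact present in every group spanned 2.34 Mb, from the bait of H2ac10, H3c8 and H4c8. It scored 7.53 and 15.9 in WT, 9.00 and 14.1 in Npm1c, 5.30 and 10.3 in Flt3-ITD, 12.3 and 5.64 in DM, and 10.6 and 15.3 in neutrophils. The groups overlap throughout. The next joined H2ac13 and H2bc13 to H1f1, H3c1 and H4c1 over 2.05 Mb, listed from both ends; H1f1 codes for a linker histone.

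Among all listed pairs, WT HSPCs had the smallest share of long-range pairs and Flt3-ITD, which brought in the most listed pairs, the largest. Among same-chromosome pairs at 5 or more in a library, the long-range share was 3.25% and 3.33% in WT, 3.83% and 4.57% in Npm1c, 4.70% and 5.27% in Flt3-ITD, and 4.18% and 3.91% in DM. Every mutant library lay above both WT libraries. Group means were 3.29% ± 0.0564 for WT, 4.20% ± 0.520 for Npm1c, 4.99% ± 0.402 for Flt3-ITD and 4.05% ± 0.187 for DM (SD, n = 2). For each mutant against WT the exact two-sided permutation test gave p = 0.333, the smallest that 2 against 2 allows. Flt3-ITD carriers (Flt3-ITD and DM) exceeded non-carriers by 0.772 percentage points (exact permutation p = 0.114, 4 against 4, smallest p 0.029), and Npm1c carriers differed from non-carriers by -0.0150 points (exact permutation p = 0.971).

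WT libraries also had fewer pairs at 5 or more at any distance than DM and Flt3-ITD ones (47191 and 41493, against 53694 to 56606). Among each library's 40000 highest-scoring pairs the long-range share was 3.42% and 3.38% in WT, 3.99% and 5.48% in Npm1c, 5.24% and 6.39% in Flt3-ITD, and 4.75% and 4.38% in DM. Without the histone patch of chromosome 13 and the natural killer gene patch of chromosome 6 it was 1.89% and 1.99% in WT, 2.61% and 3.05% in Npm1c, 3.27% and 3.63% in Flt3-ITD, and 2.79% and 2.66% in DM. In both settings every mutant library again lay above both WT libraries. With only pairs listed through a group outside the comparison, the excess over WT was smaller: 0.571 percentage points for Flt3-ITD, 0.538 for DM (exact permutation p = 0.333 each, 2 against 2) and 0.479 for Npm1c, whose libraries overlapped WT (exact permutation p = 1.000). At a score of 10 or more, the WT shares were 7.13% and 9.03%, and an Npm1c library (7.69%) and a DM library (7.96%) lay between them.

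**Figure D1:**
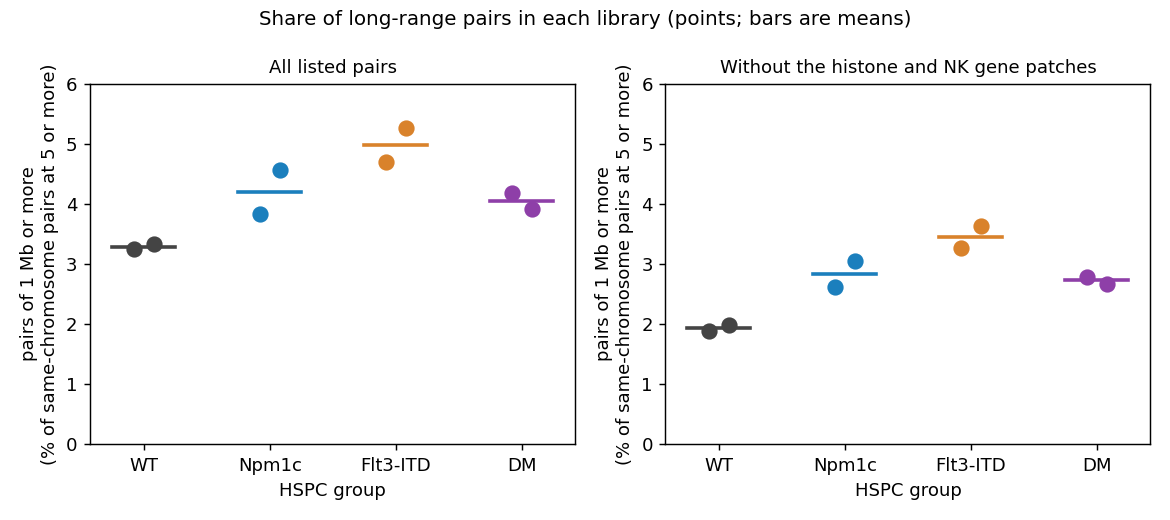
Share of long-range pairs among same-chromosome pairs at 5 or more (y axis, percent) in each HSPC library (points) with group means (bars), for all listed pairs (left) and without the histone and natural killer gene patches (right). The WT libraries, at 3.25% and 3.33% on the left, are the lowest points in both panels.

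The excess of passed pairs over WT was largest at 5 to 10 Mb in Flt3-ITD and DM and at 2 to 5 Mb in Npm1c, and smaller beyond. Flt3-ITD had 1.24 times as many passed pairs as WT under 0.1 Mb, 2.09 times at 0.5 to 1 Mb, 2.36 times at 1.5 to 2 Mb, 3.92 times at 2 to 5 Mb and 5.00 times at 5 to 10 Mb, where 110 pairs passed in Flt3-ITD and 22 in WT. Of these, 59 and 9 came from 1 patch of chromosome 12 that joined Sec23a to Fancm. That patch held 80 of the 195 pairs listed at 5 to 10 Mb, so the peak there rests largely on 1 locus. The Flt3-ITD ratio was 3.21 at 10 to 50 Mb and 2.49 beyond 50 Mb. The Npm1c ratio was 1.02 under 0.1 Mb, 1.60 at 0.5 to 1 Mb, 1.57 and 1.41 in the classes up to 2 Mb, 2.53 at 2 to 5 Mb, then 2.09, 2.04 and 1.23. DM reached 2.59 at 5 to 10 Mb, where the chromosome 12 patch gave 30 of its 57 passed pairs. At 10 to 50 Mb DM had 33 passed pairs against 47 in WT (0.702). A single patch of chromosome 11, that of Rad51c and Dhx8, gave 9 of those 33 and 34 of those 47. In absolute counts, passed long-range pairs numbered 884 (WT), 1456 (Npm1c), 2329 (Flt3-ITD) and 1620 (DM). Each class holds pairs that share baits, so the ratios are descriptions of these libraries with no test.

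**Figure D2:**
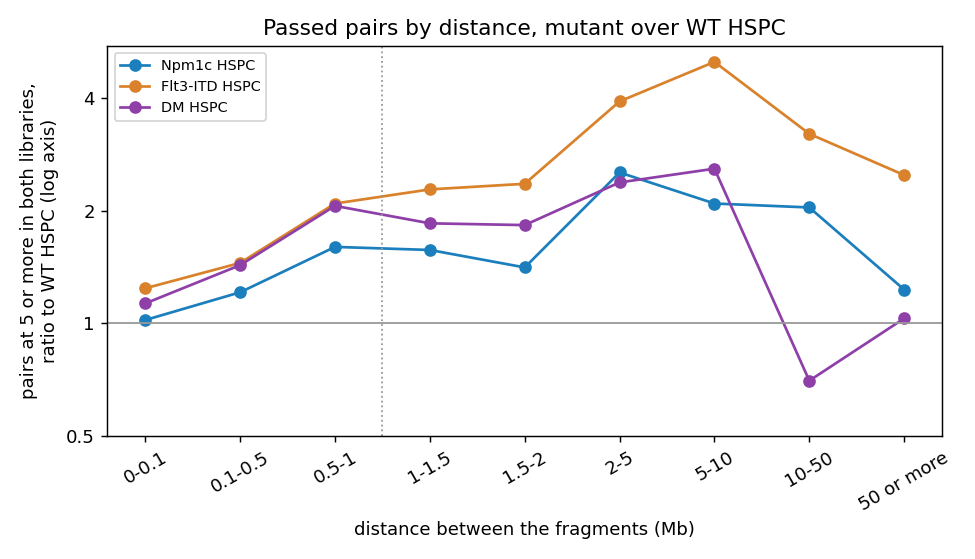
Number of pairs at 5 or more in both libraries of a mutant HSPC group over the number in WT HSPCs (y axis, log scale) by distance class (x axis, Mb); the dotted line marks 1 Mb. Flt3-ITD climbs from 1.24 under 0.1 Mb to 5.00 at 5 to 10 Mb and is at 3.21 and 2.49 beyond, and DM falls to 0.702 at 10 to 50 Mb. At 5 to 10 Mb, 1 patch of chromosome 12 gave 59 of the 110 pairs passed in Flt3-ITD. At 10 to 50 Mb, the Rad51c-Dhx8 patch gave 34 of the 47 pairs passed in WT and 9 of the 33 in DM.

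Scores of all listed pairs gave the same order. The mean log2(score + 1) of long-range pairs minus that of shorter pairs was -0.88 and -0.88 in the WT libraries, -0.73 and -0.31 in Npm1c, -0.35 and -0.07 in Flt3-ITD, and -0.55 and -0.64 in DM. Every mutant library lay above both WT libraries. The difference from WT was 0.358 for Npm1c, 0.671 for Flt3-ITD and 0.284 for DM (exact permutation p = 0.333 each, n = 2 against 2). Baits with at least 5 long-range and 5 shorter pairs, counting only pairs listed through other groups, showed it within a promoter. The long-range mean exceeded WT by more than the shorter-range mean at 52 of 70 baits in Npm1c, 47 of 55 in Flt3-ITD and 51 of 72 in DM.

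Of the 159 patches with 5 or more pairs, the mean score was above WT in 134 (84.3%) for Npm1c, 151 (95.0%) for Flt3-ITD and 125 (78.6%) for DM. These means rest on pairs listed through any HSPC group, and Flt3-ITD brought in the most, so its patch means are favoured by the listing. The largest patch joined both ends of the main histone gene cluster of chromosome 13 (840 HSPC and 392 neutrophil pairs, 51 baits, median 1.70 Mb). Its mean score was 6.79 and 6.50 in WT, 5.91 and 11.9 in Npm1c, 8.98 and 11.3 in Flt3-ITD, and 8.70 and 7.37 in DM. Npm1c overlaps WT there, and both Flt3-ITD libraries lie above both WT libraries. Among the 10 gene-bearing baits with most long-range pairs, 8 belong to it: the bait of H2ac10, H3c8 and H4c8 had 74, Abt1 65, that of H2ac11 and H4c9 63, Btn2a2 63, Zfp322a 61, that of H2ac13 and H2bc13 55, H4c6 48 and H2ac8 39. Abt1 (a basal transcription activator), Btn2a2 (a butyrophilin) and the zinc finger gene Zfp322a lie between or beside the histone genes.

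The second patch joined the natural killer gene complex of chromosome 6 to Styk1, Ybx3 and Magohb (379 HSPC pairs and 8 neutrophil pairs, median 1.77 Mb). Its left side holds lectin-like receptor genes of natural killer cells such as Klre1, Klri1, Klrk1 (NKG2D) and Klrd1 (CD94), with Tmem52b and the autophagy gene Gabarapl1. The mean score was 5.5 and 4.27 in WT, 5.36 and 7.09 in Npm1c, 7.90 and 10.9 in Flt3-ITD, and 8.13 and 7.36 in DM. Flt3-ITD and DM libraries lay above all WT libraries, and Npm1c overlapped WT. Styk1, which codes for a receptor-like kinase, had more long-range pairs than any other bait with an assigned gene: 95 of its 134 pairs, of which 23 (WT), 35 (Npm1c), 66 (Flt3-ITD) and 55 (DM) passed. A bait beside it with no assigned gene, chr6:131375361-131380865, had 100. The Klrk1 bait had 14 long-range pairs of 18.

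**Figure D3:**
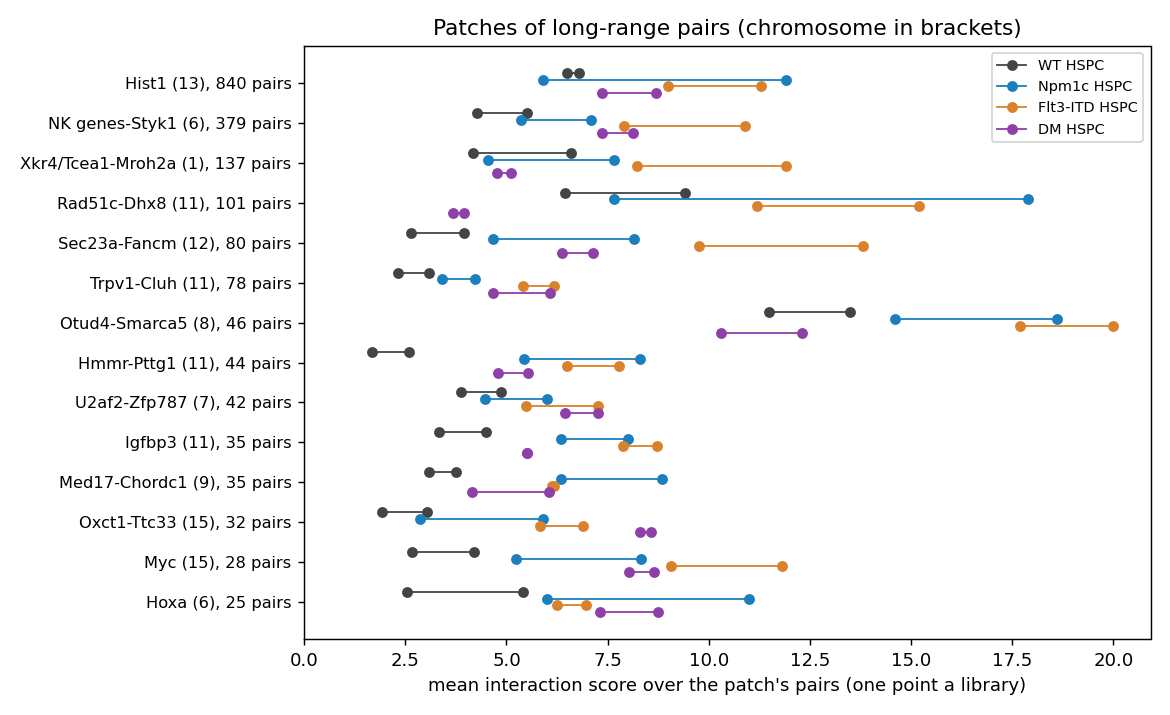
Mean interaction score over the HSPC pairs of 14 patches (x axis), 1 point for each library joined within a group, with the chromosome in brackets and the number of pairs. WT points lie lowest in most patches; the Rad51c-Dhx8 patch (3.95 and 3.68) and the Otud4-Smarca5 patch have their lowest points in DM.

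The Myc patch rests on 1 bait and a distant stretch that carries no assigned gene. All 28 pairs of the Myc bait (chr15:61984173-61985527) were long-range, and they reached a single stretch, chr15:63597714-63745140, at 1.62 to 1.76 Mb. Myc codes for a transcription factor that drives growth and proliferation. The mean score over the 28 pairs was 4.20 and 2.67 in WT, 5.23 and 8.33 in Npm1c, 9.06 and 11.8 in Flt3-ITD, and 8.03 and 8.65 in DM, so every mutant library lay above both WT libraries. Passed pairs numbered 2 (WT), 8 (Npm1c), 18 (Flt3-ITD) and 16 (DM), and no Myc pair was listed in neutrophils. Most of the 28 pairs were thus listed through mutants only, which favours mutant means over WT. The pair with chr15:63657897-63664956 scored 13.3 and 0 in WT, 3.77 and 5.39 in Npm1c, 24.7 and 22.1 in Flt3-ITD, and 12.9 and 11.5 in DM. The pair with chr15:63701364-63703597 scored 4.79 and 0.376 in WT, 3.85 and 15.6 in Npm1c, 16.0 and 17.8 in Flt3-ITD, and 10.7 and 24.2 in DM. Both examples were chosen after their values were seen.

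**Figure D4:**
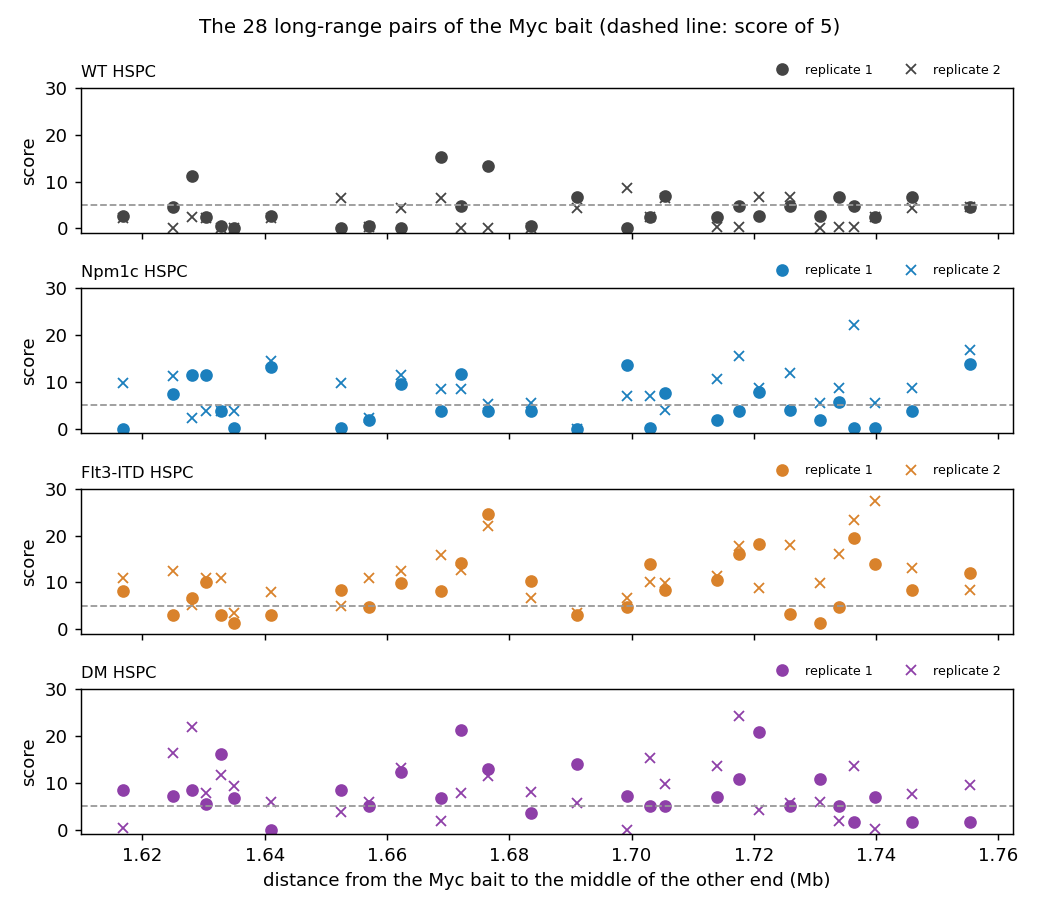
Interaction scores (y axis) of the 28 long-range pairs of the Myc bait by distance to the other end (x axis, Mb), a panel for each HSPC group, with circles and crosses for the 2 replicates. The dashed line marks 5; both libraries reach it for 2 pairs in WT and 18 in Flt3-ITD.

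In the HSPC list, 4 baits of the Hoxa cluster, homeobox genes of stem and progenitor cells, met chr6:51167210-51212855 at 1.01 to 1.08 Mb with 22 pairs, of the 25 in that patch. The mean score was 5.48 and 2.63 in WT, 6.20 and 10.8 in Npm1c, 5.90 and 7.08 in Flt3-ITD, and 7.11 and 9.21 in DM. All mutant libraries exceeded both WT libraries. Of the 22 pairs, 3 (WT), 15 (Npm1c), 9 (Flt3-ITD) and 12 (DM) passed. Most were thus listed through mutants only, which favours mutant means over WT. The highest pair joined Hoxa11 to chr6:51180767-51183201 and passed in all 4 HSPC groups, with 11.6 and 7.08 in WT, 16.1 and 26.2 in Npm1c, 17.8 and 17.3 in Flt3-ITD, and 16.4 and 27.5 in DM. Hoxa3 with Hoxa7 had 8 long-range pairs. No Hoxa pair of 1 Mb or more was listed in neutrophils.

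The 17 pairs of Igfbp3, which codes for a binding protein of insulin-like growth factors, reached chr11:8230511-8408748 at 1.02 to 1.19 Mb. Their mean score was 4.59 and 3.50 in WT, 6.88 and 7.61 in Npm1c, 9.00 and 9.33 in Flt3-ITD, and 4.26 and 4.54 in DM. For this bait DM lay with WT, and both single mutants lay above. The bait of Igfbp1 in the same patch (12 long-range pairs) averaged 4.79 and 2.88 in WT and 7.25 and 6.68 in DM. Over the whole patch of 35 pairs, WT had 4.50 and 3.32 and DM had 5.51 and 5.51. DM thus lay above WT for Igfbp1 and for the patch. The pair of Smarca5 with Otud4, 1.1 Mb apart, scored 21.9 and 6.39 in WT, 10.4 and 10.1 in Npm1c, 20.9 and 32.6 in Flt3-ITD, and 6.07 and 18.8 in DM. Its groups overlap. The whole Otud4 and Smarca5 patch of 46 pairs had mean scores of 13.5 and 11.5 in WT, 14.6 and 18.6 in Npm1c, 17.7 and 20.0 in Flt3-ITD, and 10.3 and 12.3 in DM.

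Contacts of 10 Mb or more came largely from 2 places. Of 430 such HSPC pairs, 159 (37.0%) had an end in the stretch of chromosome 1 that holds Mroh2a and Hjurp, and 101 (23.5%) joined the Rad51c and Dhx8 regions of chromosome 11. Of the remaining 170 pairs, 13 (WT), 47 (Npm1c), 89 (Flt3-ITD) and 23 (DM) passed. These regions were picked after the values were seen. On chromosome 1 the Mroh2a bait (chr1:88226925-88229010) alone had 68 long-range pairs, all at least 64.1 Mb long, with mean scores of 2.35 and 3.24 in WT, 5.94 and 7.93 in Npm1c, 6.72 and 9.11 in Flt3-ITD, and 2.82 and 2.75 in DM. Both single mutants lay above WT and DM for that bait. Mroh2a pairs made up the longest passed pairs of all 4 groups together with an unnamed bait at chr1:3100832-3102475, at 85.1 or 85.2 Mb. In Flt3-ITD 2 pairs were longer, at 168 Mb: Cd244a (a natural killer cell receptor) and Itln1 (an intelectin) with 1 fragment at chr1:3454660.

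The 3 largest pair decreases shared by the mutants lay at Hjurp, which codes for the chaperone of the centromeric histone CENP-A. Tcea1 (an elongation factor) with Hjurp, 83.4 Mb apart, scored 22.4 and 44.9 in WT and 0 in all 6 mutant libraries. Mcm3 (a subunit of the replicative helicase) with Hjurp, 67.5 Mb apart, scored 32.7 and 12 in WT, and Atp6v1h (a proton pump subunit) with Hjurp scored 6.72 and 25.6; both were at 0 in all 6 mutant libraries. In all, 8 baits of chromosome 1 had such a pair with the fragment of Hjurp or the one before it. Each pair passed in WT and was at 0 in every mutant library. They were therefore listed through WT alone, which favours a decrease in the mutants. Those 8 pairs share an end, so they are not separate cases. Of the 11 pairs of 10 Mb or more with the Tcea1 fragment, 2 (WT), 0 (Npm1c), 8 (Flt3-ITD) and 2 (DM) passed. Over the Mroh2a and Hjurp stretch, 35 (WT), 43 (Npm1c), 85 (Flt3-ITD) and 37 (DM) of the 159 such pairs passed. No mutant therefore had fewer passed pairs in that stretch than WT.

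On chromosome 11, 101 pairs joined Rad51c (homologous recombination), Tex14 and Mtmr4 to Dhx8 (a splicing helicase), Arl4d and Rdm1 over a median of 14.2 Mb. The mean score was 6.45 and 9.40 in WT, 7.65 and 17.9 in Npm1c, 11.2 and 15.2 in Flt3-ITD, and 3.95 and 3.68 in DM. Passed pairs numbered 34, 49, 64 and 9, and both DM libraries lay below every other library. On chromosome 12, 80 pairs joined Sec23a (vesicle coat), Pnn and Gemin2 to Fancm (Fanconi anaemia pathway), Klhl28 and Togaram1 over 5.90 Mb. Their mean score was 3.95 and 2.65 in WT, 4.67 and 8.15 in Npm1c, 9.77 and 13.8 in Flt3-ITD, and 7.15 and 6.36 in DM. On chromosome 15, 32 pairs joined Oxct1 and Fbxo4 to Rpl37, Prkaa1 and Ttc33; 0 (WT), 6 (Npm1c), 15 (Flt3-ITD) and 24 (DM) passed, so DM led there.

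Single pairs were tested with limma over all 88421 HSPC pairs. In Npm1c against WT, 123 long-range pairs were higher (2.72% of 4523, against a background of 0.225% of all pairs) and 49 lower (1.08%, background 0.0848%). In Flt3-ITD against WT, 261 were higher (5.77%, background 0.477%) and 55 lower (1.22%, background 0.0905%). In DM against WT, 164 were higher (3.63%, background 0.420%) and 69 lower (1.53%, background 0.156%). The 3 comparisons share the WT libraries. The median difference over long-range pairs was 0.46 for Npm1c, 0.96 for Flt3-ITD and 0.44 for DM on the log2(score + 1) scale, beside 0.12, 0.23 and 0.16 over all pairs.

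Most of these calls set a passed pair against a group at 0. Of the 261 pairs higher in Flt3-ITD, 197 (75.5%) were at 0 in both WT libraries, and of the 55 lower ones 42 (76.4%) were at 0 in both Flt3-ITD libraries. The corresponding percentages were 81.3% and 79.6% for Npm1c and 77.4% and 75.4% for DM. Pairs with a mean score of 3 or more over the libraries gave 2 long-range calls for Npm1c, 54 for Flt3-ITD and 15 for DM. Pairs listed through other groups gave 0, 9 and 0, and leaving out any 1 of the libraries compared gave 0 for Npm1c and DM, and 0 for Flt3-ITD except 1 call without WT replicate 1. Named pairs below rest on the listed scores, and no fold is given against a group at 0. A pair that passed only in the group called higher was listed through the same scores that the test compares. Its adjusted p is then no separate support for a difference.

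Among the 5 largest increases in Npm1c, the bait of Rad51c and Tex14 with Rdm1 scored 0 and 0 in WT, 24.8 and 10.4 in Npm1c, 15 and 10.5 in Flt3-ITD, and 0 and 0 in DM (adjusted p = 0.0118). Cadm4, a cell adhesion gene, with a fragment 19.9 Mb away scored 10.9 and 20.6 in Npm1c and 0 in every other HSPC library (adjusted p = 0.0117). The bait of Dnaaf1 and Taf1c with Cog8 and Nip7, 12.5 Mb apart, scored 7.21 and 22.6 in Npm1c and 0 elsewhere (adjusted p = 0.0223). The other 2 increases were a pair of 83.5 Mb on chromosome 1 with no assigned gene (0 and 0.0579 in WT, 10.4 and 23.2 in Npm1c) and a pair of 5.84 Mb on chromosome 12 (0 and 0 in WT, 16.0 and 9.89 in Npm1c). Of the 5 largest decreases, 3 were the Hjurp pairs of Tcea1, Mcm3 and Atp6v1h. The others were a chromosome 1 pair of 85.1 Mb (13.7 and 12.8 in WT, 0.251 and 0 in Npm1c) and Klri1 with a fragment 1.70 Mb away (8.14 and 16.4 in WT, 0 and 0 in Npm1c, adjusted p = 0.0150).

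In Flt3-ITD the largest increases were Cd244a at 168 Mb, with 0 and 0 in WT and 44.3 and 15.3 in Flt3-ITD (adjusted p = 0.00874), and Itln1 with the same fragment, with 0 and 0 in WT and 10.2 and 38.9 (adjusted p = 0.0161). Zkscan6 with Fgf18 (a growth factor gene), 32.7 Mb apart, scored 17.6 and 15.7 in Flt3-ITD and 0 in every other HSPC library (adjusted p = 0.00861). A natural killer complex pair of 1.94 Mb scored 0 and 0 in WT and 16.4 and 23.3 in Flt3-ITD, and a chromosome 12 pair of 5.86 Mb scored 0 and 0 in WT and 13.6 and 17.8. All 5 of the largest decreases were with Hjurp or the fragment before it: those of Tcea1, Mcm3, Atp6v1h, Ptp4a1 (a phosphatase gene; 6.80 and 18.6 in WT) and the bait of Rdh10 and Rpl7 (19.4 and 6.21 in WT), each at 0 in both Flt3-ITD libraries.

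In DM the largest increase joined Fiz1 and Zfp524 to a fragment 7.91 Mb away, with 15.8 and 19.7 in DM and 0 in every other HSPC library (adjusted p = 0.0125). The bait of Klhl28 and Togaram1 met a chromosome 12 fragment 5.93 Mb away, read from both ends, with 0 and 0 in WT and 22.6 and 10.3 in DM (adjusted p = 0.0322). Another chromosome 12 pair of 5.84 Mb scored 13.7 and 19.7 in DM and 0 and 0 in WT, and a natural killer complex pair of 1.77 Mb scored 11 and 19.5 in DM and 0 and 0 in WT. Beside Tcea1, Mcm3 and Atp6v1h with Hjurp, the decreases named a histone pair and an interferon-induced GTPase. The bait of H2ac10, H3c8 and H4c8 with a fragment 1.80 Mb away scored 9.67 and 22.8 in WT, 14.8 and 15.6 in Npm1c, 7.68 and 16.9 in Flt3-ITD, and 0 and 0 in DM (adjusted p = 0.0188). Igtp, the GTPase gene, with 2310033P09Rik scored 6.98 and 19.3 in WT and 0 and 0 in DM (adjusted p = 0.0294).

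The long-range pairs of each promoter were then tested as 1 mean, using only pairs listed through a group outside the comparison. In Flt3-ITD against WT, 14 of 104 long-range promoter features were higher (13.5%, against a background of 0.950% of all 4105 promoter features) and 0 lower (background 0%). The 14 calls became 2 after quantile normalization (background 0.0731%) and 1 when promoters with at least 3 pairs were tested (background 0.0161%). Calls were fewer without Flt3-ITD replicate 2 and more without any other library of the comparison. Without WT replicate 1, calls rose among shorter-range features too, so that rise was not particular to long-range ones. Such fits leave 1 library in a group. The outside groups are Npm1c and DM, both mutants, and the median over the 104 features was 0.67, beside 0.25 over all. For Npm1c 0 of 136 were called (background 0% higher and 0% lower; 42 at an unadjusted p under 0.05 in limma, the only tool run), with 1 and 9 calls without Npm1c replicate 2 and replicate 1. For DM 0 of 133 were called (background 0.0255% higher and 0% lower, with 48 at an unadjusted p under 0.05 in limma). With at least 10 pairs a promoter, 13 were called for DM. That setting also raised the share of all features called higher in Flt3-ITD, from 0.950% to 7.39%. The 13 are therefore not read as a long-range result.

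The 10 largest of the Flt3-ITD increases, as means of log2(score + 1) over a promoter's long-range pairs, included 5 baits with an assigned gene. Tmem52b (5 pairs) had 0.98 and 0.02 in WT and 2.68 and 2.81 in Flt3-ITD, a difference of 2.24 ± 0.28 (SE, adjusted p = 0.00531). Foxred1 with Srpr (6 pairs), a mitochondrial assembly factor and the signal recognition particle receptor, had 0.82 and 1.12 in WT and 2.61 and 2.86 in Flt3-ITD (adjusted p = 0.00531). H1f3, a linker histone gene (18 pairs), had 1.55 and 1.5 in WT and 2.83 and 3.62 in Flt3-ITD (adjusted p = 0.0169). Usp38, a deubiquitinase gene (7 pairs), had 1.44 and 0.67 against 2.47 and 2.84 (adjusted p = 0.0203). Myc (21 of its pairs) had 1.96 and 1.34 in WT and 2.92 and 3.46 in Flt3-ITD, a difference of 1.54 ± 0.26 (SE, adjusted p = 0.0203). Myc lost its call after quantile normalization (adjusted p = 0.0636 in limma) and without Flt3-ITD replicate 2 (0.0612), and H1f3 and Usp38 lost theirs after quantile normalization (0.0510 each). Tmem52b and Foxred1 with Srpr kept theirs in both settings, and all 5 lost it when promoters with at least 3 pairs were tested (0.0961 to 0.118). In each, both Flt3-ITD libraries lay above both WT libraries. The other 5 baits, on chromosomes 17, 12, 13, 1 and 11, have no assigned gene and differed by 1.43 to 1.85. The shorter-range pairs of Tmem52b, Foxred1 with Srpr, H1f3 and Usp38 differed by 0.32, 0.43, 0.62 and 0.54, none past the threshold (adjusted p = 0.370, 0.242, 0.142 and 0.221); the difference between the ranges was not tested.

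The interaction asks whether DM departs from the sum of both single mutants (the DM minus WT difference less those of Npm1c and Flt3-ITD). Among pairs, 87 were higher (1.92%, background 0.145%) and 221 lower (4.89%, background 0.420%). Of the 221, 180 were at 0 in both DM libraries and 149 were at 0 in all WT and DM libraries. The 308 calls became 57 and 2 when Npm1c replicates 1 and 2 were left out, 0 when any other single library was, and 16 among pairs with a mean score of 3 or more. Among promoter features, 1 of 194 was higher (0.515%, background 0.255%) and 30 were lower (15.5%, background 3.96%). In 28 of the 30 the DM mean lay below both single mutants, in 29 the WT mean did, and in 22 all WT and DM libraries lay below all single-mutant ones. The 31 calls became 66 when Npm1c replicate 1 was left out, 14 and 5 for Flt3-ITD replicates 1 and 2, and 15 for DM replicate 2. No group lies outside this contrast, so all listed pairs entered and the listing was not corrected for.

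The bait of Rad51c and Tex14 (6 long-range pairs) had mean log2(score + 1) of 0.77 and 0.88 in WT, 2.31 and 2.46 in Npm1c, 2.80 and 3.15 in Flt3-ITD, and 0.80 and 1.24 in DM, an interaction of -3.51 ± 0.28 (SE, adjusted p = 0.00152). WT and DM did not overlap the single mutants. Pttg1, the securin gene (8 pairs), had 1.16 and 0.59 in WT, 1.5 and 2.29 in Npm1c, 3.26 and 3.28 in Flt3-ITD, and 1.42 and 1.20 in DM (adjusted p = 0.00929). Its partner bait of Hmmr (a mitotic spindle factor) and Nudcd2, 5 pairs, gave -3.10 (adjusted p = 0.0188). Trappc12, a vesicle tethering gene (9 pairs), was highest in Npm1c, with 2.62 and 2.90 there, 1.49 and 1.59 in Flt3-ITD, 0.61 and 1.02 in WT, and 0.85 and 0.55 in DM (adjusted p = 0.00571). The single higher feature was the bait of Chmp2a (membrane scission) and Ube2m (the NEDD8 conjugating enzyme), 8 pairs, with 1.51 and 2.09 in WT, 0.39 and 1.32 in Npm1c, 0.90 and 1.60 in Flt3-ITD, and 2.72 and 2.71 in DM (adjusted p = 0.0277).

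**Figure D5:**
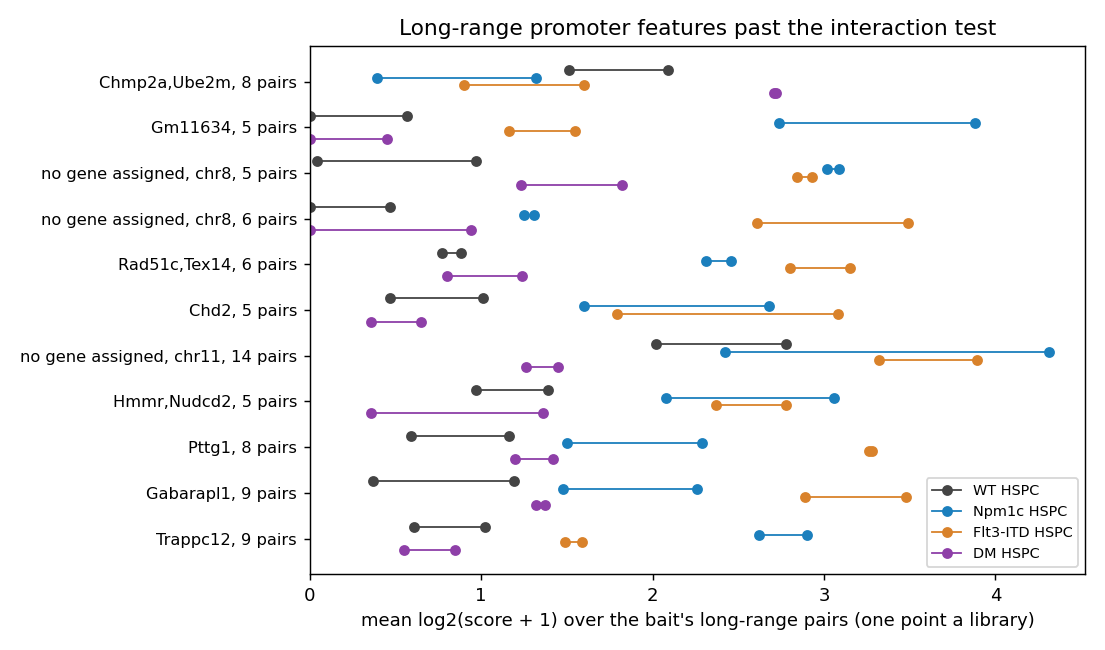
Mean log2(score + 1) over the long-range pairs of 11 baits past the interaction test (x axis), 1 point for each HSPC library. In Rad51c,Tex14 both DM libraries (0.80 and 1.24) lie near WT and below both single mutants; Chmp2a,Ube2m is the 1 bait with DM highest.

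Neutrophils had few long-range pairs outside the histone genes. The histone patch held 392 of the 606 (64.7%). Among the other patches with most HSPC pairs, the natural killer complex held 8 and the carbonic anhydrase genes 7. Patches with few HSPC pairs were not ranked by their neutrophil pairs. In neutrophils, 2.37% of listed pairs were long-range, and in WT HSPCs 2.87% of passed pairs were; the lists were made separately. Over the 303 long-range pairs in both lists, median scores were 7.56 and 7.25 in WT HSPCs and 11 and 9.54 in neutrophils. Neutrophil pairs had to reach 5 in both neutrophil libraries, while the HSPC list let WT be low, which favours neutrophils. Long-range minus shorter-range pairs differed by 0.374 between the cell types on the log2(score + 1) scale (0.365 ± 0.126 in neutrophils and -0.00834 ± 0.0315 in WT HSPCs, SD, n = 2; exact permutation p = 0.333).

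The pair test of neutrophils against WT HSPCs called 5 long-range pairs higher (1.65% of 303, background 0.206% of 14051) and 0 lower (background 0%; 106 at an unadjusted p under 0.05 in either direction in limma, the only tool run). All 5 lay in the histone cluster: 2 from the bait of H2ac11 and H4c9, 1 each from H2ac13 with H2bc13, H2ac15 with H2bc15, and Abt1. Shared pairs had to reach 5 in both neutrophil libraries but not in WT HSPCs, so the listing favours calls higher in neutrophils. The bait of H2ac11 and H4c9 with a fragment 1.71 Mb away scored 0 and 0 in WT HSPCs and 15.3 and 12.3 in neutrophils (adjusted p = 0.0151). It stood in the HSPC list through mutants, with 21.0 and 15.7 in Flt3-ITD and 6.39 and 14.4 in Npm1c. H2ac13 with H2bc13 and a fragment 1.82 Mb away scored 0 and 0 in WT HSPCs and 9.47 and 8.47 in neutrophils (adjusted p = 0.0168). The 5 calls became 57 and 17 when WT HSPC replicates 1 and 2 were left out, and 0 when either neutrophil library was or after quantile normalization. For promoters, 0 of 7 long-range features were called (background 5.20% higher and 1.73% lower; 1 at an unadjusted p under 0.05).

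Gene lists differed in how many members had a long-range pair at all, beside 1461 of 10762 genes (13.6%) overall. Among replication-dependent histone genes, 43 of 55 (78.2%) had one, and 926 of their 2024 pairs (45.8%) were long-range; neighbouring genes share a bait, so these counts repeat pairs. A list of developmental regulators, drawn up as genes held by Polycomb in blood, had one in 13 of 70 (18.6%), led by Hoxa3 and Hoxa7 (8 each) and Hoxa11 (7). Polycomb was not measured here, and the Hoxa genes are also genes of stem and progenitor cells, so the list name does not describe their state. Genes of B, T and NK lineages had one in 5 of 15, led by Klrk1 (14), with Cd244a and Gata3 at 1 each. Genes named Zfp had one in 35 of 193 (18.1%), led by Zfp322a (61), Zfp184 (20) and Zfp787 (18), of which the first 2 lie by the histone cluster.

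Stem, progenitor and leukaemia transcription factors had one in 3 of 24 (12.5%). These were Myc, Meis1 and Sox4, the last 2 with a single pair each: Meis1 with Etaa1 scored 0.896 and 0 in WT, 2.02 and 2.80 in Npm1c, 0.786 and 10.2 in Flt3-ITD, and 11.4 and 6.38 in DM, and Sox4 with E2f3 scored 0.256 and 0.427 in WT, 1.95 and 2.41 in Npm1c, 2.45 and 4.33 in Flt3-ITD, and 6.20 and 7.40 in DM. Among mature neutrophil genes 2 of 21 had one, and only Csf3r, the G-CSF receptor gene, had one in neutrophils (8.58 and 5.24); S100a9 had 1 pair of 4.08 Mb in the HSPC list. Among erythroid and megakaryocyte genes 1 of 16 had one: Car2, a carbonic anhydrase of red cells, with 6 in HSPCs and 7 in neutrophils, 3 of them in both lists. Its 6 HSPC pairs averaged 2.80 and 0.491 in WT, 3.45 and 3.46 in Npm1c, 3.85 and 5.86 in Flt3-ITD, and 5.16 and 3.88 in DM. Cohesin and CTCF genes had one in 1 of 5 (Pds5b), housekeeping genes in 1 of 18 (Hprt, 2 pairs), olfactory receptor genes in 31 of 335 (9.25%, led by Olfr412 with 16) and vomeronasal receptor genes in 5 of 42 (11.9%).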

How the data were processed

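Promoter contacts of 10 libraries were analysed from the deposited tables, on mm10 per the submitters' processing notes. Per the labels' protocols, HindIII fragments of 22047 promoters were captured; the aligner and the caller are not given in the sources used here. The deposited score, per the file headers 1 value per pair and library, is never negative and is not a count; its scale is not stated and depth is unknown, so only the spread between libraries limits precision. The other deposited quantity is the distance in bp, unsigned in the HSPC tables and signed in the neutrophil tables, so absolute values were used. Pairs were matched on both fragments; 203 HSPC and 44 neutrophil pairs off the autosomes and X were left out.

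The members and lists were chosen with earlier results of these data known. Long-range pairs were those of 1 Mb or more. Scores were tested as log2(score + 1) with limma 3.58.1 under R 4.3.3 (moderated two-sided tests with Benjamini-Hochberg adjustment over all pairs or all promoter features, threshold 0.05). The fits held 8 HSPC libraries in 1 fit over 88421 pairs and 4 WT libraries over 14051 shared pairs for neutrophils. Promoter features were means over at least 5 pairs. Values per library were compared with exact permutation tests. Genes were assigned to fragments by RefSeq start (10827 genes) or, without a listed start, by either gene end (2770). Named were the 10 gene baits with most long-range pairs, the 5 window pairs with most, the 5 largest increases and decreases among called pairs, the 10 highest and 5 longest pairs of all groups, the 5 longest of each HSPC group, up to 10 called promoters each way, and the top 3 members of each list. Replicate numbers did not pair the samples (correlations of deviations -0.012 to 0.006). In simulated scores of 88421 pairs for Flt3-ITD against WT, the pair fit recovered 0%, 8%, 10% and 52% of pairs changed by 2, 3, 4 and 6 on the log2 scale, with 0 false calls. The simulated noise was normal around the mean of each pair, with no floor at 0 and no listing through passed groups. It therefore cannot tell how many calls in the real scores are false.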

Additional observations from a re-analysis of the deposited data

Results flagged for a closer look

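Every result here was singled out because it passed the interaction test. All listed pairs entered that test, so the listing was not corrected for. Values are interactions on the log2(score + 1) scale. Where libraries are at 0 they depend on the added 1, and a score cannot fall below 0 when a second mutation is added. The test called 87 long-range pairs higher and 221 lower, and 1 promoter feature higher and 30 lower.

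Among the higher pairs, Tmpo (a nuclear lamina protein) with Lta4h (leukotriene synthesis), 2.29 Mb apart, had 6.28, and 5.61 read from the other end. It scored 3.37 and 8.74 in WT and 13.7 and 8.69 in DM, and 0 in all single-mutant libraries. A chromosome 12 pair of 2.37 Mb had 5.28, the bait of Chmp2a and Ube2m with Ppp5c had 5.27, and Tcea1 with Hjurp had 5.03. The last was at 0 in all 6 mutant libraries, DM included, so its value comes from the WT scores alone.

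Among the lower pairs, 3 belong to the Rad51c region of chromosome 11: -8.00 for a pair with no assigned gene, -7.86 for the bait of Rad51c and Tex14 with Rdm1, and -6.42 for that bait with a fragment 14.3 Mb away. A chromosome 12 pair of 5.86 Mb had -7.03. Egln2 (an oxygen-sensing hydroxylase) with Lsm14a had -6.66, with 7.10 and 11.7 in Npm1c, 6.55 and 12.1 in Flt3-ITD, and 0 in all WT and DM libraries.

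Among promoter features, the bait of Chmp2a and Ube2m had 2.41. The lower ones were Gm11634 (-4.15), 2 baits of chromosome 8 with no assigned gene (-3.91 and -3.63), Rad51c with Tex14 (-3.51), Chd2 (-3.33), a bait beside Rad51c (-3.22), Hmmr with Nudcd2 (-3.10), Pttg1 (-2.98), Gabarapl1 (-2.93) and Trappc12 (-2.78).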

How the results depend on the processing

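The long-range share and the long-range minus shorter-range score of each mutant against WT kept their direction under every alternative run, but not their size or the separation of libraries; p could not go below 0.333. With pairs of other groups, the Flt3-ITD share difference was 0.571 points (1.70 with all pairs) and its score difference 0.391 (0.671), and the Npm1c share had exact permutation p = 1.000. At a score of 10 the Npm1c and DM shares had exact permutation p = 0.667. Leaving out a library gave share differences of 0.542 to 1.28 points for Npm1c, 1.41 to 1.98 for Flt3-ITD and 0.625 to 0.889 for DM. The Npm1c carrier contrast changed sign. Its share difference was 0.0459 at a score of 3, 0.682 at 500 kb, 0.0412 with an equal number of pairs, 0.0835 without the 2 largest patches, and -0.311 to 0.363 with a library left out. Its score difference was 0.0496 at 500 kb, 0.00183 without the 2 largest patches and -0.126 to 0.144 with a library left out. Settings with equal numbers and without patches were chosen after seeing the data. In all these the cause was not tested.

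Counts of called pairs moved most. A mean score of 3 or more left 2 calls for Npm1c, 54 for Flt3-ITD, 15 for DM and 16 for the interaction, and pairs of other groups left 0, 9 and 0 for the mutants. At 2 Mb, where fewer pairs count, 195 were called for Flt3-ITD, 124 for DM and 0 for neutrophils; quantile normalization left 0 for neutrophils. Leaving out a library gave 0 to 0 for Npm1c and DM, 0 to 1 for Flt3-ITD, 0 to 57 for the interaction and 0 to 57 for neutrophils; fits with a lone sample assume that it varies like the other groups. Fitting replicate number as a block (a number only, as the samples were not paired) gave 4 interaction calls.

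For called promoters, the replicate block gave 2 for Npm1c and 0 for Flt3-ITD. Quantile normalization gave 2 for Flt3-ITD and 1 for neutrophils. At least 3 pairs gave 1 for Flt3-ITD, 49 for the interaction and 1 for neutrophils, and at least 10 pairs gave 13 for DM and 18 for the interaction. With at least 10 pairs, the share of all features called higher in Flt3-ITD also rose, from 0.950% to 7.39%. Leaving out a library gave 0 to 9 for Npm1c, 8 to 72 for Flt3-ITD, 5 to 66 for the interaction and 0 to 1 for neutrophils. Quantile normalization also moved the median difference over all promoter features from 0.25 to -0.02 for Flt3-ITD, with the long-range median going from 0.67 to 0.38. Depth could not be read from the scores.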
